A study of Ovis aries with 18 samples.

Results

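Of 10 genes of the pluripotency and epiblast network taken from a list of names, 6 had a row among the 20092 genes of the embryo count table. These were the transcription factors POU5F1, NANOG, SALL4, ESRRB and PRDM14, and TDGF1, a membrane-anchored co-receptor of Nodal signalling. All 6 passed the filter on low counts (at least 15 counts in at least 4 pools), as did 16488 genes in all. SOX2, KLF4, LIN28A and LIN28B had no row in the table used here and were not analysed here.

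RNA was sequenced from 12 pools of 5 sheep blastocysts, which ranged from early to hatched and held both inner cell mass and trophectoderm. The 6 control pools came from the Polypay rams Ram410, Ram423 and Ram444, with 2 pools each, on the basal diet. The 6 methionine pools were embryos from treatment sires, which were Polypay rams whose prepubertal ration was topped with 1.5 g (0.22%) of methionine in a rumen-protected form. Of these, 4 pools came from Ram424 and 1 each from Ram498 and Ram511. Diet was given to the sires only, so the comparison asks whether paternal methionine went with a difference in the embryos. Sister pools have their sire in common and, by the breeding scheme of the study, often their dam, so p-values measure the spread between pools and not only between sires. Pools are named here by ram and pool number, as in Embryo444_2.

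Pluripotency is the capacity of the inner cell mass, and then of the epiblast, to form all tissues of the fetus. POU5F1, NANOG and SOX2 form the core of the transcription factor network that maintains it, and the other factors of the list feed into that core. The surrounding trophectoderm, which gives rise to the fetal part of the placenta, switches this network off as the blastocyst matures, and ruminant trophectoderm retains POU5F1 for longer than that of the mouse.

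Values are normalized counts (CPM) after TMM scaling, that is, a gene's share of the effective library size on a common scale, where TMM corrects library size for composition. CPM are not divided by gene length, so levels were compared between pools and not between genes. Total counts were 1173289 to 1554651 in control pools and 1017847 to 2398589 in methionine pools. 1 pool of each diet stood apart over all genes tested: Spearman coefficients among the other 10 pools were 0.806 to 0.955, whereas those of Embryo444_2 (control) and Embryo511_1 (methionine) with these 10 were 0.526 to 0.626. These 2 pools also had the lowest totals, 1173289 and 1017847, and results are given with and without them. Genes at 0 counts numbered 651 in Embryo444_2 and 1158 in Embryo511_1, against 517 to 720 in the other 10 pools.

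POU5F1, which encodes the factor OCT4, was read from 20 to 1038 counts per pool. The control pools had 303 and 313 CPM (Ram410), 333 and 320.2 CPM (Ram423), and 253 and 14.2 CPM (Ram444). Methionine pools had 496, 425, 521 and 267 CPM (Ram424), 132 CPM (Ram498) and 39.7 CPM (Ram511). The 3 highest values were all from Ram424, yet the lowest values of both diets lay far below the rest, so the groups overlapped. In a bulk pool, fewer cells of a type and less RNA per cell cannot be told apart.

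NANOG, the core factor that marks the epiblast, was the least counted of the 6, with 8 to 23 counts per pool. Control pools had 15.1, 14.9, 7.86, 12.8, 16.3 and 9.91 CPM in the order of the pools above. Methionine pools had 8.60, 5.10, 14.1 and 10.8 CPM for Ram424, 10.2 CPM for Ram498 and 7.93 CPM for Ram511. The lowest and the highest of these came with 95% Poisson intervals of 2.33 to 9.67 CPM (Embryo424_2) and 10.3 to 24.5 CPM (Embryo444_1), and most other pools could not be ordered at this depth. Intervals cover counting error only, since the cDNA was amplified with no molecular identifiers to tell copies of a molecule apart. POU5F1 and NANOG have processed copies in mammalian genomes, and reads shared with near-identical copies could make their counts uncertain. Whether this affected the sheep counts was not tested.

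SALL4, a zinc finger factor that activates POU5F1, had 524, 485, 827, 489, 452 and 74.3 CPM in the control pools. The methionine pools had 594, 626, 660, 585, 277 and 167 CPM. Embryo423_1 was highest, the 4 pools of Ram424 were close to each other, and the 3 lowest pools were also the 3 lowest in POU5F1. ESRRB, an orphan nuclear receptor of the naive state that is also used by trophoblast, had 176, 222, 185, 150.1, 119.9 and 24.8 CPM in control pools. In methionine pools it had 301, 293, 193, 207, 163 and 128 CPM. Embryo424_1 and Embryo424_2 were highest and both Ram444 pools lowest, with the remaining control and methionine pools intermingled.

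PRDM14, which represses genes of the primed state and acts in germ cell specification, was not low in the pools that stood apart. Control pools had 18.8, 19.1, 27.1, 26.9, 16.3 and 43.9 CPM. Methionine pools had 34.4, 37.9, 32.5, 24.1, 14.5 and 83.3 CPM. The highest pool of each diet was the pool lowest in POU5F1, on 62 and 84 counts, and the groups overlapped. In the other 10 pools its order was close to that of POU5F1 and SALL4, with Spearman coefficients of 0.915 and 0.830, and over all 12 pools they were 0.11 and 0.063. ESRRB had 0.588 with POU5F1 over the 10 pools and 0.748 over 12. In the 10 pools the coefficients of TDGF1 with POU5F1, SALL4, ESRRB and PRDM14 were -0.855 to -0.648. Those of NANOG with the same genes were -0.624 to -0.394, and NANOG and TDGF1 had 0.733 with each other. Over 12 pools the coefficients of TDGF1 and NANOG with these genes were -0.594 to -0.441 and -0.685 to -0.105. These coefficients are descriptions over pools that share sires, and those of NANOG rest on 8 to 23 counts per pool, at which most pools could not be ordered. TDGF1, also called CRIPTO, had 26.3, 30.5, 22.1, 22.5, 62.4 and 19.1 CPM in control pools. The methionine pools had 15.3, 16.4, 23.3, 18.7, 39.7 and 27.8 CPM. Embryo444_1 and Embryo498_1 were highest, 1 from each diet, and the other 10 pools lay within 15.3 to 30.5 CPM.

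**Figure D1:**
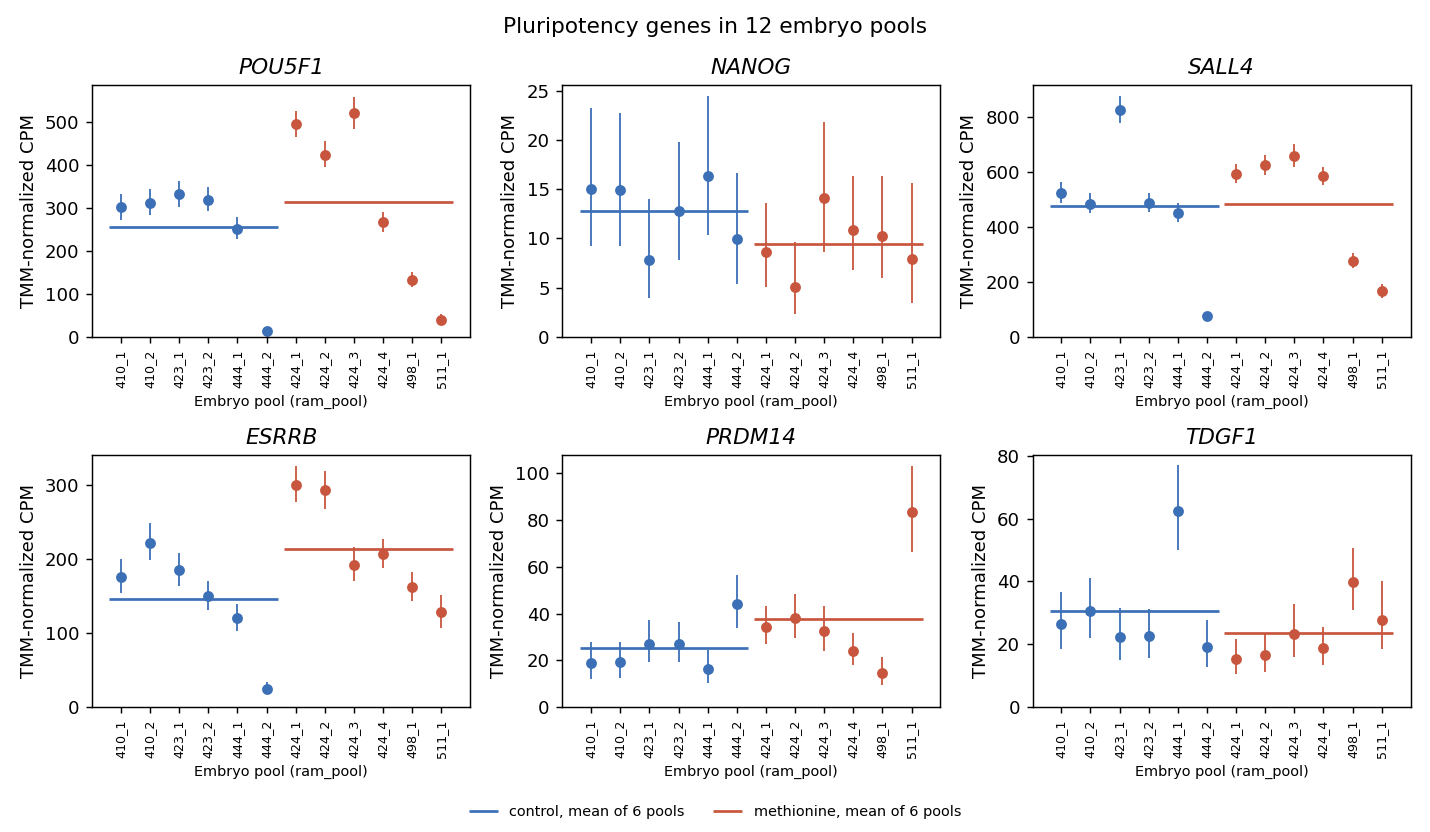
TMM-normalized CPM (vertical axis, linear, from 0) of the 6 genes in each embryo pool (horizontal axis, ram and pool number), with 95% Poisson intervals of the count and a line at the mean of each diet (blue control, red methionine, 6 pools each). Embryo444_2 was lowest in POU5F1, SALL4 and ESRRB (14.2, 74.3 and 24.8 CPM), and Embryo511_1 highest in PRDM14 (83.3 CPM).

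No difference between diets passed the test in any of the 6 genes. In the quasi-likelihood test of edgeR, 0 of 6 passed a false discovery rate (FDR) of 0.05 and 0 of 6 had an unadjusted p under 0.05, against 0% and 7.92% of the 16488 genes tested. The diet groups overlapped in all 6, where 0.352% of genes tested had groups that did not overlap. The log2 fold change (methionine over control) was above 0 in 4 genes and below 0 in 2, with a median of 0.16 against 0.01 over all genes tested.

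POU5F1 had 256 ± 122 CPM (SD, n = 6) in control and 314 ± 199 CPM (SD, n = 6) in methionine pools. Its log2 fold change was 0.29 (SE 0.61, 95% interval -1.001 to 1.59, edgeR FDR = 0.920). NANOG had 12.8 ± 3.30 and 9.47 ± 3.04 CPM, with a log2 fold change of -0.43 (SE 0.34, interval -1.15 to 0.29, edgeR FDR = 0.756). Both intervals span 0, and that of POU5F1 is the wider. SALL4 had 475 ± 240 and 485 ± 208 CPM, with a log2 fold change of 0.03 (SE 0.49, interval -1.01 to 1.07, edgeR FDR = 0.994). ESRRB had 146 ± 68.8 and 214 ± 69.9 CPM, with a log2 fold change of 0.55 (SE 0.40, interval -0.29 to 1.39, edgeR FDR = 0.741). For both factors the difference in means was no larger than the SD within a diet. PRDM14 had 25.4 ± 10.1 and 37.8 ± 23.8 CPM, with a log2 fold change of 0.56 (SE 0.38, interval -0.25 to 1.36, edgeR FDR = 0.732). Much of this difference came from Embryo511_1, without which the methionine mean was 28.7 CPM and the log2 fold change 0.17. Without Embryo444_2 the log2 fold change of PRDM14 was 0.78. TDGF1 had 30.5 ± 16.1 and 23.5 ± 9.20 CPM, with a log2 fold change of -0.38 (SE 0.35, interval -1.11 to 0.36, edgeR FDR = 0.797). This value rested on Embryo444_1, without which the control mean was 24.1 CPM and the log2 fold change -0.040.

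With the pool as the unit, exact two-sided permutation tests of mean log2(CPM + 1) over 924 assignments gave p = 0.115 for NANOG and p = 0.141 for ESRRB, and 0.297 to 0.794 for the other 4 genes. With the ram as the unit, over 20 assignments, exact p was 0.2 for NANOG, 0.7 for POU5F1, SALL4, ESRRB and PRDM14, and 0.9 for TDGF1. With 3 rams against 3 the exact p cannot go below 0.1. The direction of POU5F1 and SALL4 depended on single rams: their log2 fold changes were -1.56 and -1.09 without the 4 pools of Ram424, and -0.018 and -0.26 without the 2 pools of Ram444. SALL4 also turned to -0.20 without Embryo444_2 and to between -0.086 and -0.023 without any 1 pool of Ram424. Without Ram424, ESRRB was at -0.0028 and TDGF1 at 0.16. The only methionine pools left without Ram424 were Embryo498_1 and Embryo511_1, and Embryo511_1 stood apart over all genes.

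**Figure D2:**
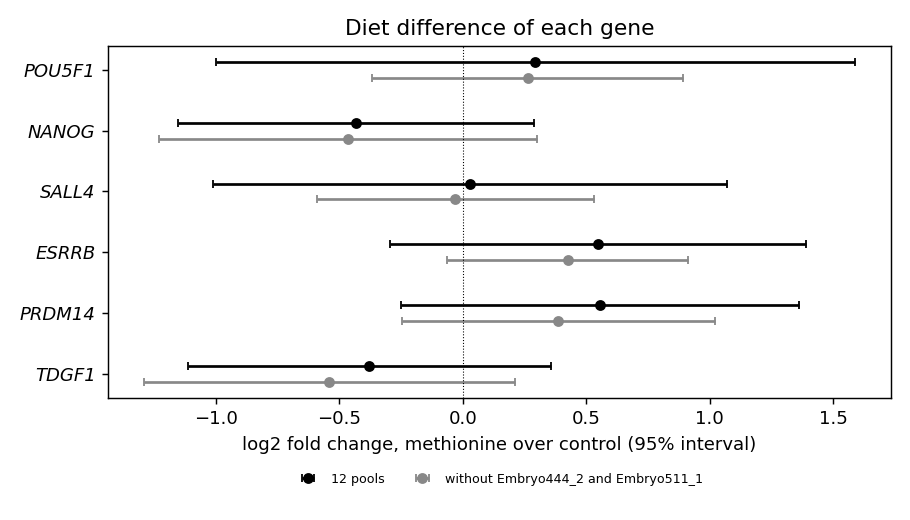
Log2 fold change of methionine over control pools (horizontal axis) for each of the 6 genes, with 95% intervals from the edgeR quasi-likelihood fit, in 12 pools (black) and in 10 pools without Embryo444_2 and Embryo511_1 (grey). All intervals include 0, and they were narrower in 10 pools for POU5F1, SALL4, ESRRB and PRDM14.

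Without Embryo444_2 and Embryo511_1, 5 pools remained per diet and again 0 of 6 genes passed the FDR of 0.05 or an unadjusted p of 0.05, against 0.00619% and 11.9% of 16161 genes tested. Of the 5 methionine pools left, 4 came from Ram424 and 1 from Ram498. Every result given here without the 2 pools therefore sets mostly embryos of Ram424 against the controls, and diet and sire cannot be told apart in it. POU5F1 then had 304 ± 30.9 and 368 ± 165 CPM (SD, n = 5 each), with a log2 fold change of 0.26 (interval -0.37 to 0.89). The control pools were thus close to each other once Embryo444_2 was set aside, while the methionine pools still ranged from 132 to 521 CPM. ESRRB came nearest to a difference, with 171 ± 38.4 and 231 ± 62.3 CPM and a log2 fold change of 0.43 (interval -0.06 to 0.91, edgeR FDR = 0.480). The other log2 fold changes were -0.46 for NANOG, -0.03 for SALL4, 0.39 for PRDM14 and -0.54 for TDGF1, with edgeR FDR of 0.564 to 0.978.

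Spread between pools differed from gene to gene. The coefficient of variation over 12 pools was 56.3% for POU5F1, 44.6% for SALL4, 41.6% for ESRRB and 59.0% for PRDM14, and without the 2 pools it was 34.7%, 26.4%, 29.0% and 31.9%. NANOG (31.4% and 31.6%) and TDGF1 (48.3% and 51.0%) were hardly altered. The median gene tested had 42.2% and 33.6%.

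Pools of a ram were alike in POU5F1 for Ram410 and Ram423, where the higher pool had 1.03 and 1.04 times the lower. For Ram424 the highest of 4 pools had 1.95 times the lowest, and for Ram444 the ratio was 17.8. The Ram444 pools also differed 6.08-fold in SALL4, 4.84-fold in ESRRB, 3.27-fold in TDGF1 and 2.69-fold in PRDM14, the first 3 of these with Embryo444_2 lower and PRDM14 with Embryo444_2 higher. NANOG differed 1.65-fold between them. The other control rams had ratios of 1.01 to 1.69 in all 6 genes.

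Embryo444_2 had 4.47% of the median POU5F1 level of the 10 other pools (317 CPM), 13.4% of that of SALL4 (555 CPM) and 13.1% of that of ESRRB (189 CPM). On log2(CPM + 1), POU5F1 differed from that median by -4.39, and 0.776% of genes tested lay lower, with 3.28% and 3.29% lower than SALL4 and ESRRB. NANOG and TDGF1 stayed near the middle of all genes, at 83.8% and 83.6% of their medians, and PRDM14 was at 172%. Embryo511_1 had 12.5% of the median POU5F1 level and 30.0% of that of SALL4, with 2.02% and 9.26% of genes lower. ESRRB was at 67.7%, NANOG at 67.1% and TDGF1 at 121%, whereas PRDM14 was at 326% with 92.8% of genes lower. Such displacement was common in these pools: 24.6% of all genes tested were below all 10 other pools in Embryo444_2 and 26.6% in Embryo511_1, and 22.0% and 24.9% were above all 10. Of the 6 genes, 3 and 2 were below all 10, and PRDM14 was above all 10 in both.

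**Figure D3:**
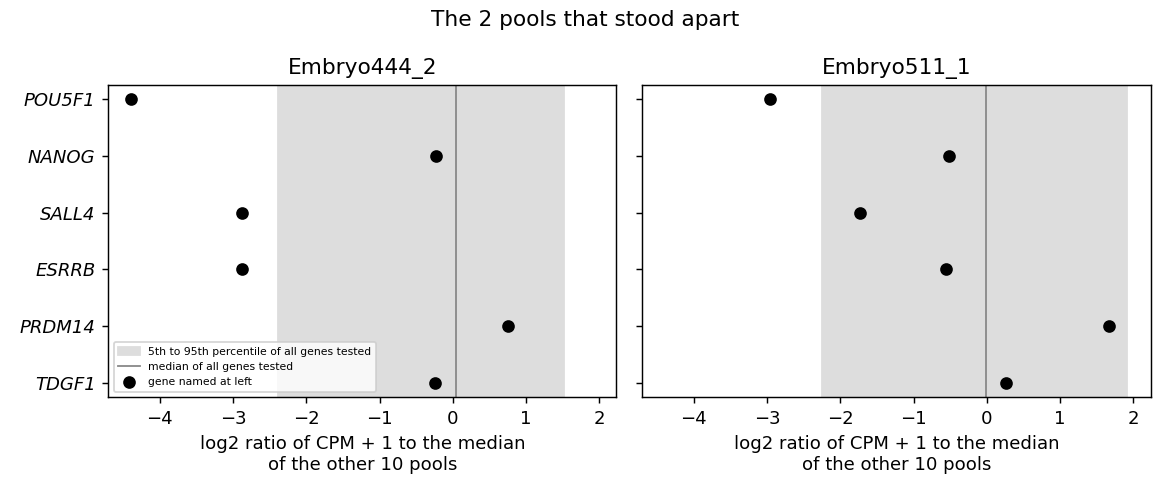
Log2 ratio of CPM + 1 to the median of the other 10 pools (horizontal axis) for the 6 genes in Embryo444_2 and Embryo511_1, over the 5th to 95th percentile (grey) and median (line) of all genes tested. POU5F1 lay outside the grey range in both pools (-4.39 and -2.97), SALL4 and ESRRB in Embryo444_2 alone (-2.88 each), and NANOG, PRDM14 and TDGF1 in neither.

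Most trophectoderm markers were lower in the same 2 pools. Of 18 listed, 12 were tested, and their summed level was 5612 to 15086 CPM in the 10 pools, 457 CPM in Embryo444_2 and 337 CPM in Embryo511_1. Below all 10 pools were 8 and 9 of the 12, against 24.6% and 26.6% of all genes tested. The median log2 ratio to the other pools was -2.52 and -2.08. KRT8 was the largest part of that sum in the 10 pools. The keratin KRT8 had 3893 to 11862 CPM in the 10 pools and 116 and 42.6 CPM in these 2, KRT18 had 696 to 2219 CPM against 14.2 and 34.7 CPM, and TFAP2C, a factor that specifies trophectoderm, had 326 to 830.1 CPM against 49.6 and 27.8 CPM. Other markers went against this: EOMES, a T-box factor, was above all 10 pools in Embryo444_2 (96.3 CPM against 24.1 to 67.9 CPM) and below them in Embryo511_1 (18.8 CPM). ELF5 (29.0 and 66.4 CPM against 17.1 to 128 CPM), KRT19 (8.49 and 18.8 CPM against 6.23 to 59.5 CPM) and PLAC8 (10.6 and 6.94 CPM against 5.71 to 19.7 CPM) lay within the range of the 10 pools. EOMES, ELF5 and PLAC8 are named after their values were seen. No trophectoderm marker was at 0 in any pool. Of the hypoblast markers, 12 of 16 were tested, with a summed level of 1393 to 1999 CPM in the 10 pools against 1037 and 1264 CPM. GATA6, which directs inner cell mass cells to the hypoblast, had 249 to 801 CPM against 38.9 and 66.4 CPM, while LAMA1 had 194 to 376 CPM against 181 and 363 CPM and LAMC1 had 202 to 402 CPM against 139 and 162 CPM. SOX17 was at 0 in at least 1 pool and failed the filter. The part of cell composition, or of library quality, in the POU5F1, SALL4 and ESRRB values of these pools was not tested.

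Markers of other sources differed in which of the 2 pools lay outside the range of the other 10. The 14 oocyte markers tested, of 20 listed symbols with some synonyms among them, summed to 248 to 369 CPM in the 10 pools. They summed to 307 CPM in Embryo444_2 and 931 CPM in Embryo511_1, with median log2 ratios to the other pools of -0.16 and 0.46. Most of the 931 CPM was ZP2 and ZP3. In Embryo511_1 the zona pellucida genes ZP2 and ZP3 had 205 and 410 CPM against 27.9 to 54.5 and 9.21 to 26.8 CPM, and ZAR1 was at 0. The 4 oviduct and uterus markers tested of 8 summed to 72.3 to 118 CPM, so that Embryo444_2 was above the range with 157 CPM and Embryo511_1 within it with 80.3 CPM. The 4 blood and immune markers tested of 8 summed to 115 to 699 CPM, and both pools were within that range with 144 and 278 CPM. Among them PTPRC, the pan-leukocyte CD45 gene, was above the 10 pools (40.2 to 76.5 CPM) with 121 and 254 CPM. ALAS2, a haem synthesis enzyme of red cells, was below them (14.5 to 622 CPM) with 9.91 and 10.9 CPM, as was CD68, a macrophage gene (8.60 to 38.8 CPM), with 6.37 and 1.98 CPM. The median log2 ratio of the blood list was -1.27 and -1.64. Their part in the PRDM14 values was not tested.

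Between diets, 0 of 12 trophectoderm and 0 of 12 hypoblast markers passed the FDR of 0.05, and their median log2 fold changes were 0.21 and 0.01. By unadjusted p, 1 of the 12 trophectoderm markers was higher and 1 lower with methionine, where 7.92% of all genes had such a p. Without the 2 pools it was 5 of 12 against 11.9% of all genes, with a median log2 fold change of 0.23, and 0 passed the FDR. DAB2, an endocytic adaptor, had 203 ± 81.1 and 487 ± 235 CPM with a log2 fold change of 1.26 (edgeR FDR = 0.585) and 1.28 without the 2 pools, and the keratin KRT19 had 31.6 ± 20.7 and 12.9 ± 4.78 CPM with a log2 fold change of -1.31 (edgeR FDR = 0.584) and -1.64 without the 2 pools.

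The genes whose order over the 12 pools was most like that of POU5F1 all encode ribosomal proteins: RPL35, RPL10A and RPL19, with Spearman coefficients of 0.993, 0.986 and 0.965, and of 0.988, 0.976 and 0.939 over 10 pools. Their levels spanned 9.20 to 212 CPM, 38.9 to 1323 CPM and 35.4 to 678 CPM. For NANOG the most alike were N4BP3 (0.930), DPCD (0.895) and ZFHX2 (0.895), and over 10 pools the coefficients were 0.964, 0.891 and 0.964. These are descriptions over pools that share sires, chosen as the highest of 16488 genes. With 8 to 23 counts of NANOG per pool, its order over the pools is itself uncertain.

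A list of 42 further pluripotency genes had 31 in the table and 26 tested, and 0 of 26 passed the FDR of 0.05. The log2 fold change was above 0 in 17 of 26, with a median of 0.21 against 0.01 over all genes tested. By unadjusted p, 2 were higher with methionine and 0 lower, close to the 7.92% of all genes. SALL3, a paralogue of SALL4, had 37.7 ± 7.76 CPM in control and 64.5 ± 19.1 CPM in methionine pools (log2 fold change 0.77, SE 0.25, edgeR FDR = 0.584), and 0.54 without the 2 pools. MYCN, a MYC family factor, had 23.6 ± 4.89 and 49.9 ± 57.5 CPM (log2 fold change 1.05, SE 0.49, edgeR FDR = 0.620), and this rested on 167 CPM in Embryo511_1, since the log2 fold change was 0.13 without the 2 pools.

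Among the most abundant of that list, ZFP42, the pluripotency marker REX1, had 96.9 ± 44.3 and 190.4 ± 139 CPM (log2 fold change 0.98, SE 0.56, edgeR FDR = 0.682). It was 91.4 to 366 CPM in the 10 pools and 13.5 and 17.8 CPM in Embryo444_2 and Embryo511_1, the same pools that were low in POU5F1. TBX3, a T-box factor of the naive network, had 142 ± 57.0 and 182 ± 93.0 CPM, with 125 to 290.1 CPM in the 10 pools and 30.4 and 27.8 CPM in those 2. TFCP2L1, a partner of ESRRB in naive cells, had 137 ± 27.6 and 144 ± 60.8 CPM, with 90.3 to 204 CPM against 87.1 and 51.6 CPM. Not all of the network was low there. The 26 genes summed to 1137 to 1993 CPM in the 10 pools and to 991 and 1380.0 CPM in these 2. Their median log2 ratio to the other pools was -0.24 in Embryo444_2 and 0.10 in Embryo511_1. Below all 10 pools were 10 and 8 of 26, as were 24.6% and 26.6% of all genes tested. Some lay higher: SALL3 and MYCN had 95.2 and 167 CPM in Embryo511_1, against at most 79.3 and 32.8 CPM in the 10 pools. UTF1, FGF4, FOXD3, SUSD2 and VRTN failed the filter. Without the 2 pools, 6 of 26 had an unadjusted p under 0.05, against 11.9% of all genes, and 0 passed the FDR.

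**Figure D4:**
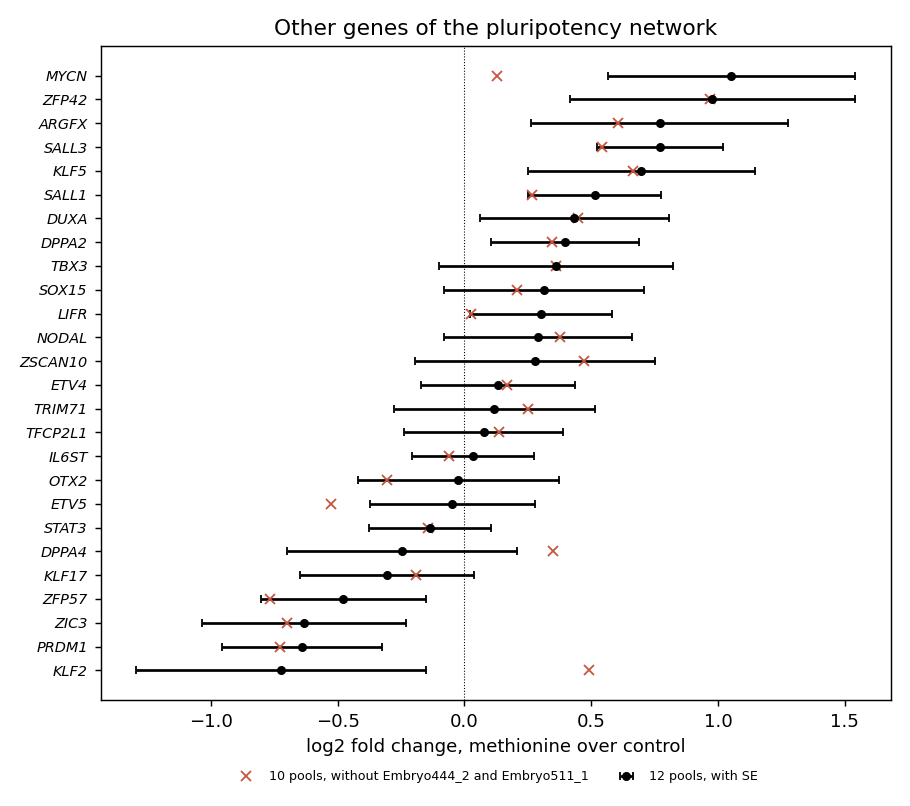
Log2 fold change of methionine over control pools (horizontal axis) for the 26 further pluripotency genes tested, with SE, in 12 pools (black), and the value in 10 pools without Embryo444_2 and Embryo511_1 (red crosses). MYCN moved from 1.05 to 0.13, while ZFP42 was 0.98 and 0.97.

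TDGF1 presents Nodal to the activin receptors, which signal through SMAD2 and SMAD3. Of 14 genes of this pathway 8 were in the table and 6 were tested, with 0 called and a median log2 fold change of -0.07. By unadjusted p, 1 of 6 was lower, against 7.92% of all genes. Without the 2 pools 3 of 6 had such a p, against 11.9% of all genes, namely ACVR1B (log2 fold change -0.53), ACVR2B (-1.45) and SMAD2 (0.61, named after its value was seen). The median was then -0.16, and 0 passed the FDR. The type II receptor ACVR2B had the lower level with methionine, 27.3 ± 26.6 against 9.69 ± 5.71 CPM (log2 fold change -1.46, SE 0.56, edgeR FDR = 0.585). Its control pools ranged from 9.91 to 77.3 CPM and overlapped with the 1.98 to 18.7 CPM of methionine pools. The type I receptor ACVR1B had 65.0 ± 14.2 and 51.8 ± 25.0 CPM, SMAD3 had 49.1 ± 29.8 and 63.1 ± 17.2 CPM, and the Nodal convertase PCSK6 had 48.3 ± 16.1 and 39.3 ± 5.26 CPM.

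LIN28A and LIN28B are RNA-binding proteins that block maturation of let-7. Of 12 listed symbols of partners and targets, 9 were in the table and 8 were tested. The symbols not found include older names of TUT4 and TUT7, which were tested. Over 12 pools none passed the FDR of 0.05 or an unadjusted p of 0.05, and the median log2 fold change was 0.13. Without the 2 pools 1 of 8 had such a p, IGF2BP1 (log2 fold change 0.70), against 11.9% of all genes. Again 0 passed the FDR. DICER1, which cuts microRNA precursors, had 208 ± 43.1 and 180.4 ± 44.4 CPM. The let-7 targets IGF2BP1 and IGF2BP3 had 111 ± 51.2 and 181 ± 80.4 CPM, and 103 ± 35.5 and 149.8 ± 36.7 CPM, in control and methionine pools. IGF2BP1 was also low in Embryo444_2 and Embryo511_1, at 23.4 and 40.6 CPM against 110.0 to 249 CPM in the 10 pools. DICER1 was above the 10 pools (148.9 to 219.8 CPM) in Embryo444_2 with 290.2 CPM and below them in Embryo511_1 with 110.0 CPM. In each of these pools 3 of 8 genes were below all 10, where 24.6% and 26.6% of all genes tested were.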

How the data were processed

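RNA sequencing of 12 embryo pools was analysed. The sperm methylation calls of the series were not used here. The authors extracted RNA from pools of 5 blastocysts, amplified it as cDNA (REPLI-g), trimmed reads with Trimmomatic, aligned them to Oar_rambouillet_v1.0 with STAR and deposited raw counts per gene. Versions and the strand setting are not given in the sources used here. All columns were mapped, and diet was taken from the sample labels. Members were matched by symbol.

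Genes with at least 15 counts in at least 4 pools were scaled by TMM, and diet was tested in edgeR 4.0.16 (R 4.3.3) by quasi-likelihood, two-sided, with Benjamini-Hochberg FDR under 0.05 over all genes tested. Permutation tests were exact, on log2(CPM + 1). Poisson intervals are exact, at 95%. The fit was tested on simulated data, in which pools were drawn independently with no shared sires and no pool standing apart. That check cannot show how shared sires or such pools affect the p-values here. Total counts of 1017847 to 2398589 per pool limit the precision of genes with few counts.

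Named were all members, of each list the genes with unadjusted p under 0.05 and the 3 of highest mean CPM, and the 3 genes most like POU5F1 and NANOG by Spearman coefficient. The members and lists were chosen with earlier results of these data known. UTF1, FGF4, FOXD3, SUSD2, VRTN, SOX17, ZAR1, EOMES, ELF5, PLAC8 and SMAD2 were named after their values were seen. Leaving out Embryo444_2 and Embryo511_1, and summing Embryo424_1 with Embryo424_2, were alternatives chosen after seeing the data. Embryo424_1 and Embryo424_2 were the most alike (chi-square per degree of freedom 3.29, next pair 8.29) but differed by more than sampling noise, and were kept apart. Alternatives were the likelihood-ratio test, DESeq2 1.42.0, RLE or total-count scaling, other filters, pools summed per ram, limma 3.58.1 with ram as random effect, and each pool or ram left out.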

Additional observations from a re-analysis of the deposited data

Results flagged for a closer look

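In 3 of 12 sets of 6 pools (6 genes in 2 diets), 1 pool lay far from the others by Dixon's test, which chance alone does in about 1 set in 20. Among control pools, POU5F1 was 14.2 CPM in Embryo444_2, where the next lowest was 253 CPM. PRDM14 was 83.3 CPM in Embryo511_1, and the next highest methionine pool had 37.9 CPM. TDGF1 was 62.4 CPM in Embryo444_1, above the next control pool at 30.5 CPM. The first 2 concern the pools that stood apart over all genes, and the TDGF1 value came from a sister of Embryo444_2 that did not stand apart.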

How the results depend on the processing

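No member passed the FDR of 0.05 or an unadjusted p of 0.05 in any of 28 alternatives. Over all genes, 5 were called by the likelihood-ratio test, 16 by DESeq2 and 1 (MROH5) without Embryo444_2 and Embryo511_1. NANOG stayed below 0 (log2 fold change -0.58 to -0.30) and PRDM14 above 0 (0.17 to 0.93) in all 28. The lowest value of PRDM14 was the one without Embryo511_1. The log2 fold change of POU5F1 turned to -0.34 with pools summed per ram and -0.19 with ram as a random effect, and was -1.56 to 0.52 with a pool or ram left out. That of SALL4 was -0.041 with total counts only, -0.39 summed per ram, -0.19 with the random effect, -0.030 without the 2 pools, -0.050 with Embryo424_1 and Embryo424_2 summed, and -1.09 to 0.35 with a pool or ram left out. With a pool or ram left out, ESRRB was -0.0028 to 0.84 and TDGF1 -0.60 to 0.16, both signs turning without Ram424 alone. Leaving out Ram424 left only Embryo498_1 and Embryo511_1 with methionine. The exact permutation p for means per ram, where the difference turned sign, was 0.7 for POU5F1 and 0.7 for SALL4, and for SALL4 without the 2 pools it was 0.865. The cause was not tested. Scaling by total counts moved the median log2 fold change of all genes to -0.09. No paired analysis was possible because no ram sired pools of both diets. Sperm methylation near the members was not run, since no annotation of its build was used here. The few counts of NANOG and the 3 rams per diet limit the differences that could be detected.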

Other observations

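Genes of the germ line, which re-expresses part of the pluripotency network, did not pass the FDR of 0.05 between diets: 8 were listed, 6 were in the table and 5 were tested, with 0 called. PRDM1, a repressor that acts with PRDM14 in germ cell specification, had 54.5 ± 26.6 CPM (SD, n = 6) in control and 35.0 ± 7.76 CPM (SD, n = 6) in methionine pools, with a log2 fold change of -0.64 (edgeR FDR = 0.647) and -0.73 without Embryo444_2 and Embryo511_1. DDX4, the germ cell helicase VASA, had 44.8 ± 10.3 and 59.0 ± 15.5 CPM, with a log2 fold change of 0.40 (edgeR FDR = 0.703). TFAP2C, shared with the trophectoderm list, had 378 ± 179 and 481 ± 281 CPM.

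Of the oocyte, oviduct and blood lists 0 genes were called between diets. ZP2 and ZP3 had log2 fold changes of 0.98 and 2.35 (edgeR FDR = 0.607 and 0.584), which were 0.30 and 0.46 without the 2 pools. FOXJ1, a factor of ciliated cells such as those of the oviduct lining, had 27.6 ± 12.2 and 12.8 ± 4.88 CPM, with a log2 fold change of -1.09 (edgeR FDR = 0.585) and -0.77 without the 2 pools. PGR and ESR1, the progesterone and oestrogen receptors, had 15.3 ± 3.57 and 17.5 ± 4.43 CPM, and 43.1 ± 9.50 and 40.2 ± 13.7 CPM. Among blood markers, CD68 had 17.6 ± 7.84 and 17.7 ± 13.0 CPM, and ALAS2 had 122 ± 117 and 210.1 ± 244 CPM.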
